A study of Homo sapiens with 4 samples.

Results

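DNA repair and replication-stress response genes were described in FaDu, an established squamous carcinoma cell line of the human hypopharynx, without treatment and after combined inhibition of DNA methylation and histone deacetylation. The 58 genes were chosen by symbol for their role in repair, with earlier results of these data known. Each had exactly 1 row among the 25548 gene symbols of the deposited table. By role they comprised 10 Fanconi anaemia genes, 11 homologous recombination genes, 5 end joining genes, 10 genes of checkpoint and break signalling, 10 of base excision repair, 8 of nucleotide excision repair, 3 of mismatch repair and 1 translesion polymerase.

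The untreated FaDu library is labelled DMSO only. The treated cells received 5 µM 5-aza-2'-deoxycytidine (Aza), a nucleoside that is built into DNA and traps DNA methyltransferases, on days 1 to 3, and 100 nM trichostatin A (TSA), which blocks histone deacetylases, on day 3. Polyadenylated RNA was sequenced from 1 stranded library per group, so the differences below could not be set against a spread between replicates and carry no p-value. The same treatment, at other doses, was given to UMSCC47, a second head and neck line, but its 2 columns could not be matched to the row names. APEX1, an abundant repair nuclease at 114 and 143 FPKM in the FaDu columns, was listed at 0 in both UMSCC47 columns, and 9 and 12 of the 58 genes were listed at 0 there against none in FaDu. The Spearman correlation over rows with the untreated FaDu column was 0.908 for the treated FaDu column and 0.110 and 0.113 for the UMSCC47 columns, which are therefore not used for named genes. Expression is in FPKM, fragments per kilobase of transcript scaled to library size, and the FaDu columns sum to 491963 and 516692 FPKM. Read numbers cannot be read from FPKM, and the absolute depth behind each value is unknown. FaDu was checked against marker lists. Squamous epithelial markers were abundant, with the basal keratin KRT5 at 687 and 226 FPKM and all 8 markers of the list above 3 FPKM in both libraries. Like KRT5, TP63 (73.7 and 23.2 FPKM) and DSG3 (22.1 and 3.16 FPKM) were lower in the treated library. KRT14 was higher (49.8 and 147 FPKM), and the other 4 differed by less than 2-fold on the scale used below. Of 6 fibroblast, 6 leukocyte and 5 endothelial markers, 1, 2 and 1 reached 1 FPKM in either library (COL1A1, CD14 with CD68, and CDH5), and the summed levels were 0.794 and 3.65, 14.7 and 56.3, and 0.943 and 3.89 FPKM. CD68 made up most of the leukocyte sum, at 13.0 and 51.3 FPKM, while the leukocyte marker PTPRC was at 0.0513 and 0.0385 FPKM. In the untreated library COL1A2, PDGFRB, LUM, DCN, CD3E, PECAM1, KDR and TEK were among the markers at 0. The part of these higher sums in the repair genes was not tested.

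Cells repair DNA by pathways that divide the work by lesion. Fanconi anaemia proteins recognise crosslinks between DNA strands and mark them by attaching ubiquitin to a clamp of FANCD2 and FANCI, after which homologous recombination copies the lost sequence from the sister chromatid. Base excision repair removes small base damage with a glycosylase, nucleotide excision repair cuts out bulky adducts, mismatch repair corrects replication errors, and the kinases ATM and ATR halt the cell cycle while breaks or stalled forks persist. As background to the treatment, Aza leaves methyltransferase covalently bound to DNA, and the glycosylases TDG and UNG also act on altered cytosine.

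All 58 genes were expressed at 1 FPKM or more in both libraries. Their levels ran from 1.84 FPKM (OGG1) to 377 FPKM (XRCC6) in the untreated library and from 1.61 FPKM (FANCM) to 521 FPKM (XRCC6) in the treated library, with medians of 12.03 and 12.09 FPKM. Their order was largely shared, with a Spearman correlation across the 58 genes of 0.915 between the libraries, which share the line and the gene lengths. Differences were computed as log2((treated FPKM + 1)/(untreated FPKM + 1)), a scale that understates differences of genes at low levels. A gene was called higher or lower at 2-fold on this scale. Only ERCC1, the partner of the ERCC4 nuclease, was called higher, and none of the 58 was called lower. Measured genes were those that reached 1 FPKM in the untreated or the treated library, 13558 in all, of which 16.1% were called higher and 5.21% lower. Many of those genes start from low levels. Among the 10688 genes whose untreated level lay within the range of the 58, the shares were 10.1% and 6.26%.

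Smaller differences were not more frequent than among other genes, and their directions varied by pathway. At 1.5-fold, 8 of the 58 genes (13.8%) were higher and 10 (17.2%) lower, against 30.7% and 16.1% of all measured genes, and against 23.3% and 18.9% of those in the same range of levels, so the share of lower genes was near that of all genes. Of the 8 higher genes 6 belonged to excision repair (ERCC1, OGG1, UNG, ERCC2, MUTYH and DDB1) and 2 to the Fanconi core complex (FANCE and FANCA). Of the 10 lower genes 5 belonged to homologous recombination (BRIP1, BLM, XRCC2, BRCA2 and WRN), 4 to checkpoint and break signalling (MRE11A, NBN, RAD50 and CHEK1), and 1 was the Fanconi ubiquitin ligase FANCL. In all, 38 of the 58 (65.5%) were below their untreated level, against 44.0% of measured genes, and the median log2 change was −0.13 against 0.13 for all measured genes. The 6 higher excision repair genes were 6 of 18, near the 30.7% of all measured genes. The median log2 change of the 18 was 0.19, and that of the 8 nucleotide excision repair genes was −0.03. The lower levels of recombination and signalling genes and the changes of excision repair genes moved with the GC content of the transcripts, which is given below.

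**Figure D1:**
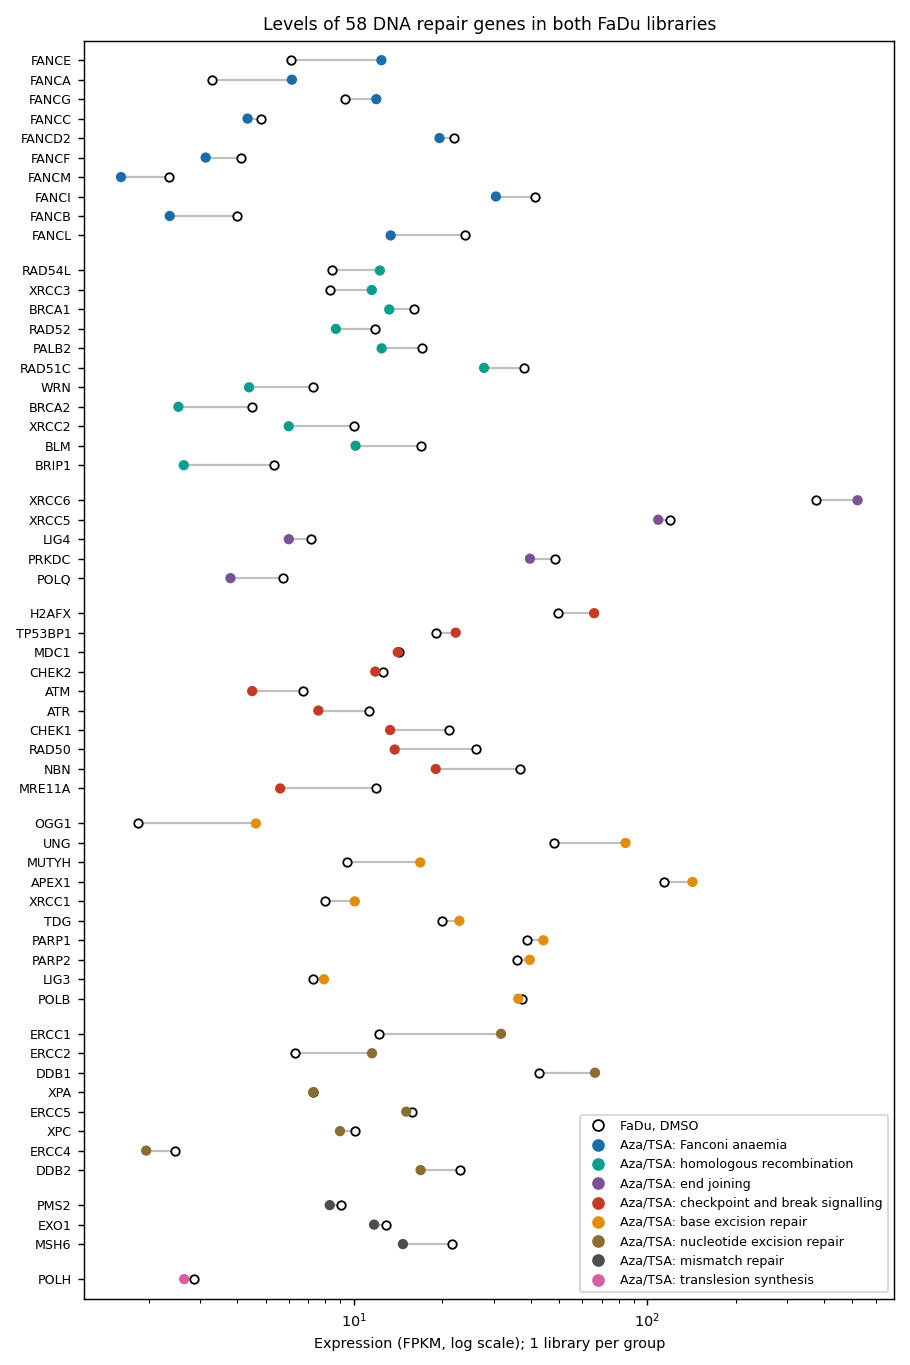
Level of each of the 58 genes in FPKM (log axis) in the untreated FaDu library (open circles) and the treated one (filled, coloured by repair class), 1 library per group, with genes ordered by change within a class. ERCC1 has the widest gap, 12.2 to 31.7 FPKM, and most recombination and signalling genes lie to the left of their untreated level.

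The Fanconi anaemia genes did not move as a unit. Within the core complex, which carries the ubiquitin ligase to the lesion, FANCE was 6.10 FPKM in the untreated library and 12.4 in the treated library (log2 change 0.92) and FANCA was 3.28 and 6.15 FPKM (0.74). FANCG, another core subunit, was 9.35 and 11.9 FPKM. In the opposite direction lay FANCL, the ligase itself, at 23.97 and 13.3 FPKM (log2 change −0.80), and FANCB, its binding partner, at 3.99 and 2.36 FPKM (−0.57). The core subunits FANCC, at 4.82 and 4.34 FPKM, and FANCF, at 4.12 and 3.13 FPKM, differed less. FANCM, the translocase that anchors the complex on DNA, was 2.34 and 1.61 FPKM and was the lowest of the 58 genes when treated. The clamp subunits on which the ligase acts were 22.02 and 19.6 FPKM (FANCD2) and 41.3 and 30.5 FPKM (FANCI). The class had a median log2 change of −0.24, with 7 of 10 genes below their untreated level. Its 3 higher genes, FANCE, FANCA and FANCG, had transcripts of 57.95%, 55.4% and 58.1% GC, while FANCL had 39.3% and FANCB 36.7%.

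Homologous recombination genes lay below their untreated level in 9 of 11 cases, with a median log2 change of −0.44. BRIP1, a helicase that binds BRCA1, was 5.35 FPKM in the untreated library and 2.63 in the treated library (log2 change −0.81). BRCA2, a mediator of recombination, was 4.51 and 2.52 FPKM (−0.65), PALB2, which links it to BRCA1, was 17.1 and 12.4 FPKM (−0.43), and BRCA1 itself was 15.99 and 13.2 FPKM (−0.26). These 4 genes form a physical chain, and each lay below its untreated level, BRCA1 least. Their transcripts had 36.3% to 42.8% GC, and of all genes in the lower GC range given below, 79.5% were lower. After correction for GC content the median of the 4 went from −0.54 to −0.12, with 1 of the 4 above 0. The RecQ helicases that unwind recombination intermediates were lower, BLM at 16.9 and 10.1 FPKM (−0.68) and WRN at 7.26 and 4.39 FPKM (−0.61). Of the further recombination factors, RAD51C was 38.1 and 27.8 FPKM and XRCC2 was 9.98 and 5.997 FPKM, while XRCC3 was 8.29 and 11.5 FPKM. RAD52, an annealing protein, was 11.8 and 8.68 FPKM. RAD54L, the motor that helps strand invasion, was 8.43 and 12.3 FPKM and with XRCC3 made up the higher members of the class. Those 2 genes also had the highest GC content of the class, 53.1% and 62.5%, against a class median of 42.2%.

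End joining genes spanned the widest range of levels. The Ku subunits, which cap broken ends, lay at the top, XRCC6 at 377 and 521 FPKM and XRCC5 at 119.2 and 109 FPKM, so that the ratio of XRCC6 to XRCC5 RNA was 3.17 in the untreated library and 4.78 in the treated one. PRKDC, the catalytic subunit of the DNA-dependent protein kinase, was 48.3 and 39.8 FPKM. LIG4, the ligase of the pathway, was 7.16 and 6.002 FPKM, and POLQ, the polymerase of microhomology-mediated joining, was 5.74 and 3.80 FPKM (log2 change −0.49). None of the 5 genes differed 1.5-fold on the FPKM + 1 scale. XRCC6, the 1 gene above its untreated level, had the highest GC content of the class, 50.7%, and LIG4 the lowest, 36.2%.

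The 3 subunits of the MRN complex, which senses double-strand breaks and activates ATM, were all 1.5-fold lower, with a median log2 change of −0.92 that was −0.50 after correction for GC content. MRE11A, its nuclease, was 11.9 FPKM in the untreated library and 5.61 in the treated library (log2 change −0.97). NBN was 37.0 and 19.01 FPKM (−0.92), and RAD50, the scaffold, was 26.2 and 13.8 FPKM (−0.88). These were the 3 lowest changes of the 58, and each stayed just short of 2-fold on the FPKM + 1 scale. Without the pseudocount the untreated level was 2.12 times the treated one for MRE11A, 1.94 times for NBN and 1.90 times for RAD50. The subunits kept nearly the same proportions, with 2.20 and 2.46 times as much RAD50 as MRE11A RNA and 3.11 and 3.39 times as much NBN. Their transcripts had 38.5%, 37.3% and 41.4% GC, and MRE11A shares exon sequence with ANKRD49 on the opposite strand, at 11.1 and 5.95 FPKM. The kinases lay below their untreated level in 4 of 4 cases, CHEK1 at 21.1 and 13.3 FPKM (−0.63), ATR at 11.3 and 7.57 FPKM (−0.52), ATM at 6.69 and 4.50 FPKM (−0.48) and CHEK2 at 12.5 and 11.8 FPKM (−0.08). The kinase transcripts had 39.1% to 45.1% GC, and of all genes in the lower GC range given below, 79.5% were lower. After correction for GC content the kinase median went from −0.50 to −0.08, with 1 of the 4 above 0. CHEK1 is the effector kinase of ATR at stalled forks and CHEK2 that of ATM. The adaptors that gather at breaks were nearly level, MDC1 at 14.2 and 14.1 FPKM and TP53BP1 at 19.1 and 22.2 FPKM. H2AFX, the histone variant phosphorylated at breaks, was 49.5 and 65.9 FPKM and had the highest GC content of the 58, 66.4%. H2AFX RNA also exists without a poly(A) tail, and that form was not measured.

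Base excision repair was the class in which most genes were above their untreated level, 9 of 10, with a median log2 change of 0.25. Its widest changes were in 3 of its 4 glycosylases. OGG1, which removes oxidised guanine, was 1.84 FPKM in the untreated library and 4.63 in the treated library (log2 change 0.99, just under the 2-fold call, and 2.52 times without the pseudocount). UNG, which removes uracil, was 48.1 and 84.3 FPKM (0.80), and MUTYH, which removes adenine mispaired with oxidised guanine, was 9.50 and 16.8 FPKM (0.76). TDG, which removes thymine and oxidised methylcytosine opposite guanine, was 19.98 and 22.9 FPKM (0.19). APEX1, which cuts the abasic site left behind, was 114 and 143 FPKM (0.32), and the scaffold XRCC1 was 7.97 and 10.1 FPKM (0.30). OGG1, UNG and MUTYH had 54.4%, 50.7% and 60.6% GC, against a class median of 50.1%. The break sensors PARP1 and PARP2 were 38.9 and 44.2 FPKM and 35.9 and 39.8 FPKM. The ligase LIG3 was 7.27 and 7.90 FPKM. The gap-filling polymerase POLB, at 37.4 and 36.3 FPKM, was the only gene of the class below its untreated level. Since the median of all measured genes was 0.13, 8 of the 10 genes lay above that median. With each column scaled by its upper quartile 7 of the 10 lay above 0 and 8 above the median of all genes, which was then −0.03. With GC correction by the median over transcripts 6 of the 10 lay above 0, and 6 above the median of all genes.

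Nucleotide excision repair was divided. ERCC1 was 12.2 FPKM in the untreated library and 31.7 in the treated library (log2 change 1.31), the widest change of the 58 and at percentile 90.8 of all measured genes. ERCC1 shares exon sequence with CD3EAP on the opposite strand, itself at 3.53 and 7.16 FPKM, and whether reads were assigned by strand is not known. The partner of ERCC1 in the nuclease that cuts on one side of the lesion, ERCC4, was 2.46 and 1.96 FPKM (−0.22), so that the ratio of ERCC1 to ERCC4 RNA was 4.95 in the untreated library and 16.2 in the treated one. ERCC5, the nuclease of the other side, was 15.8 and 15.1 FPKM. ERCC2, a helicase of TFIIH, was 6.31 and 11.5 FPKM (0.78). XPA, which verifies the damage, was 7.28 FPKM in both libraries. The ultraviolet damage sensor is made of DDB1 and DDB2, which went apart, DDB1 at 42.8 and 66.3 FPKM (0.62) and DDB2 at 22.9 and 16.9 FPKM (−0.42), and their ratio went from 1.87 to 3.93. The general damage sensor XPC was 10.1 and 8.97 FPKM. The class median was −0.03, with 3 genes above and 5 below their untreated level. ERCC1 and DDB1 had 56.1% and 53.5% GC, but DDB2, at 54.3%, did not share their direction. ERCC4 had 39.9% GC, and after correction for GC content the log2 change was 0.79 for ERCC1 and 0.17 for ERCC4.

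The mismatch repair genes were below their untreated level in 3 of 3 cases, and none differed 1.5-fold. Their transcripts had 40.8% to 46.2% GC. MSH6, which recognises mismatches, was 21.6 and 14.7 FPKM (log2 change −0.53), the exonuclease EXO1 was 12.9 and 11.7 FPKM (−0.13), and the endonuclease PMS2 was 9.05 and 8.27 FPKM (−0.12). PMS2 and CHEK2 have near-identical pseudogenes, so their values depend on how shared reads were assigned. POLH, the polymerase that bypasses ultraviolet lesions, was 2.85 and 2.64 FPKM (−0.08).

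Across the 58 genes, the change followed the GC content of the principal transcript, with a Spearman correlation of 0.82 and a Pearson correlation of 0.79. The genes share both libraries and are not independent replicates. The same relation held over all genes, with a Spearman correlation of 0.68 across the 7127 genes that reached 5 FPKM in each library. Among the 29 genes of lowest GC content, from 36.2% to 45.1%, 28 were below their untreated level, with a median log2 change of −0.48. Among the other 29, from 45.3% to 66.4%, 19 were above it and 10 below, with a median of 0.30. Of the 7127 genes divided at the same GC content, 79.5% and 26.6% were below 0, with medians of −0.34 and 0.37. The correlation of the change with transcript length was weaker, at −0.44. What gives the relation with GC content was not tested, and a library effect on GC-rich fragments and an effect of the treatment cannot be told apart with 1 library per group.

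**Figure D2:**
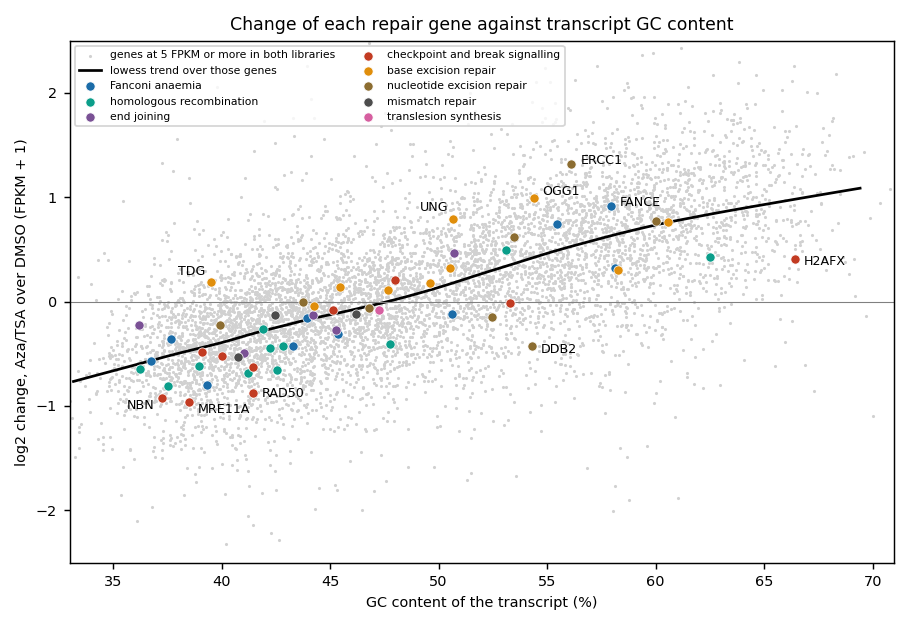
Log2 change on the FPKM + 1 scale against GC content of the transcript in percent, for the 58 genes (coloured by class) and for the 7127 genes that reached 5 FPKM in each library (grey), with their lowess trend (black). The 58 genes follow the trend, with ERCC1, UNG, OGG1 and TDG above it and DDB2, H2AFX, RAD50 and MRE11A below it.

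When this trend was subtracted, the division between pathways narrowed. None of the 58 remained 2-fold higher or lower, against 7.47% and 4.27% of all genes with a GC value, and 3 were 1.5-fold higher and 1 lower, against 15.7% and 13.5%. In all, 32 of the 58 were below 0, against 48.7% of all genes. ERCC1 stayed the highest, at 0.79, followed by UNG at 0.62, TDG at 0.61 and OGG1 at 0.57. DDB2 was the lowest, at −0.84, followed by H2AFX at −0.58, RAD50 at −0.57 and MRE11A at −0.50. NBN was at −0.39. BRCA2 went from −0.65 to −0.05 and ATM from −0.48 to −0.04, and among the higher genes MUTYH went from 0.76 to 0.00 and ERCC2 from 0.78 to 0.04. The sign turned for 14 of the 58, among them XRCC3, FANCG, XRCC1 and H2AFX, whose changes became negative, and LIG4 and ERCC4, whose changes became positive. With GC content as the median over transcripts it turned for 22.

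By class, the corrected medians were −0.11 for Fanconi anaemia, −0.20 for homologous recombination, 0.03 for end joining, −0.34 for checkpoint and break signalling, 0.13 for base excision repair, 0.11 for nucleotide excision repair and −0.05 for mismatch repair, against 0.02 for all genes. Homologous recombination had 9 of 11 genes below 0 and checkpoint and break signalling 8 of 10, while base excision repair had 9 of 10 above 0. These counts equal those before correction, but not for the same genes. BRCA1 and XRCC3 changed sides, as did CHEK2 and H2AFX, and POLB and XRCC1. With GC content as the median over transcripts, 9 of 11 homologous recombination genes and 7 of 10 of checkpoint and break signalling were below 0. In that setting 6 of 10 base excision repair genes and 6 of 10 Fanconi anaemia genes were above 0. Before correction, Fanconi and recombination genes together had a median of −0.41 and excision repair genes 0.19, beside 0.13 for all measured genes. After it the medians were −0.20 and 0.13, beside 0.02, so the difference narrowed. These are descriptions of 2 libraries. The genes of a class are not replicates of the treatment.

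**Figure D3:**
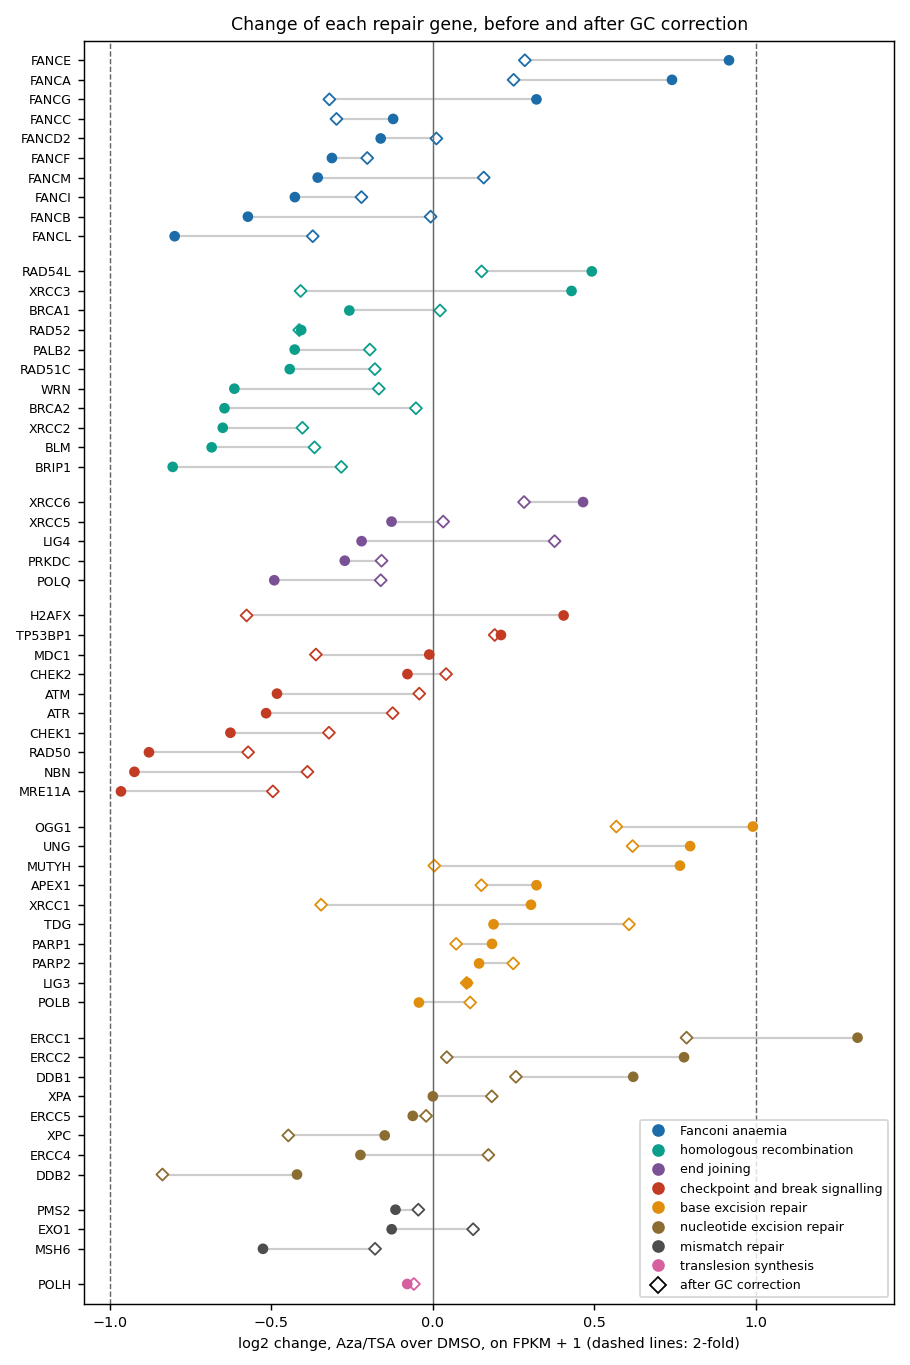
Log2 change of each gene on the FPKM + 1 scale before (filled circles) and after (open diamonds) subtraction of the GC trend, with genes ordered as in the plot of levels and dashed lines at 2-fold. ERCC1 alone lies beyond a dashed line before correction, at 1.31, and no gene does after it.

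Other repair genes, 132 in all and all measured, were read from lists written from general knowledge, with earlier results of these data known. Of them 10 act in direct reversal or the nucleotide pool and the rest in the pathways above. Of all 132, 9 were at least 2-fold higher and 5 at least 2-fold lower, against the 16.1% and 5.21% of all measured genes. The median log2 change of the 132 was −0.07. After GC correction, of the 131 with a GC value, 7 were lower and 1 was higher, against 4.27% and 7.47% of all genes with a GC value. The 1 higher was the checkpoint clamp gene HUS1, at 1.05, which is named after its value was seen. The end joining polymerase POLM was 1.60 and 7.81 FPKM, the recombination nuclease MUS81 13.0 and 34.3 FPKM, and the CDK1-inhibiting kinase PKMYT1 9.01 and 22.3 FPKM. The abasic endonuclease APEX2 was 10.8 and 24.1 FPKM, and the base excision list as a whole had a median of 0.59, which was −0.11 after GC correction. On the lower side were the mismatch repair gene PMS1, at 8.45 and 1.96 FPKM, the deubiquitinase BRCC3, at 18.9 and 6.89 FPKM, the primase-polymerase gene CCDC111, at 5.90 and 1.76 FPKM, and the recombination gene RAD51B, at 4.65 and 1.46 FPKM, and RRM2B, a ribonucleotide reductase subunit, at 25.0 and 11.1 FPKM. PMS1, BRCC3, CCDC111 and RAD51B were also at least 2-fold lower after GC correction, at −1.13, −1.01, −1.004 and −1.005. The rest of the 7 were the recombination genes OBFC2B, at −1.20, and RMI2, at −1.15, and the direct reversal gene MGMT, at −1.03. These were not 2-fold lower before correction, and OBFC2B and MGMT are named after their values were seen. The signs of the 58 did not all extend to these lists, as the other checkpoint genes had a median of 0.05, with 16 of 29 above 0, and the other Fanconi genes 0.08. The other translesion genes had the lowest median of these lists, −0.64, with 10 of 11 below their untreated level, and −0.22 after correction.

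Many repair genes are transcribed as cells replicate their DNA, so proliferation genes are given beside them. Of 22 DNA replication genes 2 were called higher, E2F1 (4.82 and 13.5 FPKM) and CCNE1 (2.70 and 7.99 FPKM), and none lower, with a median log2 change of 0.22. Of 16 genes of G2/M and mitosis 1 was called lower and none higher, CENPF, a kinetochore protein, at 40.2 and 19.6 FPKM, with a median of −0.19. After GC correction the medians were −0.01 and −0.11. The part of cell cycle position in the differences of the repair genes was not tested, and in bulk RNA fewer cells in a phase and less RNA per cell cannot be told apart.

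**Figure D4:**
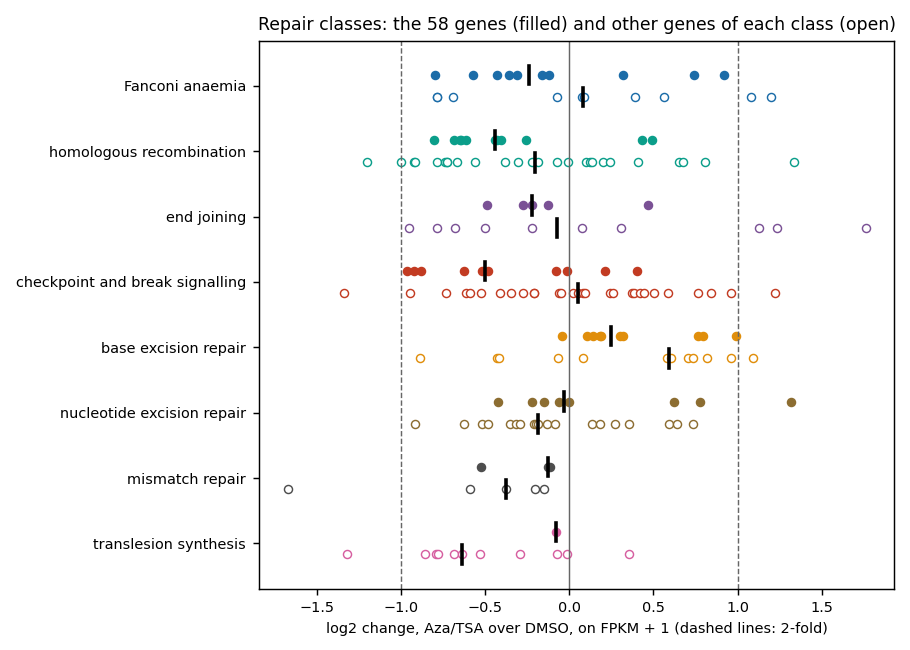
Log2 change on the FPKM + 1 scale of the 58 genes (filled) and of the other genes of each pathway (open), 1 row pair per class, with black bars at the medians and dashed lines at 2-fold. Base excision repair has the highest medians in both rows, 0.25 and 0.59, and homologous recombination lies below 0 in both, at −0.44 and −0.20, while checkpoint and break signalling (−0.50 and 0.05) and Fanconi anaemia (−0.24 and 0.08) differ in sign between the rows.

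Promoter sequence was examined because Aza acts on methylated CpG sites. A RefSeq window of 300 bases (250 before and 50 after an annotated start, GRCh38.p14) was found for 52 of the 58 genes. These promoters were rich in CpG, with a median of 26 sites and a range of 5 to 43, against a median of 14 over 27305 promoters. The number of CpG sites did not order the changes, with a Spearman correlation of −0.02 across the 52 genes, or −0.03 after GC correction. Motifs were searched on both strands. The E2F motif (TTTCCCGC or TTTGGCGC) was in 11.5% of the 52 windows and in 2.3% of all promoters, the CCAAT box (CCAAT) in 26 of the 52 windows and 35.7%, the GC box (GGGCGG) in 71.2% and 44.6%, the cell cycle element CHR (TTTGAA) in 13.5% and 15.4%, and the NRF1 core (CGCATGCG) in 1.9% and 2.2%. The E2F motif was in FANCC, FANCD2, XRCC2, XRCC6, XPC and MSH6, of which XRCC6 alone was above its untreated level. Of the 46 genes without it, 27 were below theirs. For the CCAAT box, 13 of 26 genes with it and 19 of 26 without it were below. For the GC box these counts were 22 of 37 and 10 of 15, and for CHR 5 of 7 and 27 of 45. Whether a motif goes with the direction of change was not tested. A match is a description of the letters in this window and not evidence of binding.

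The 250 bases before the start are shown for 4 genes from the ends of the ranking, to set the CpG content of the genes at each end side by side, 5′ to 3′ on the gene's strand with each CpG in capitals. OGG1 (log2 change 0.99, chr3:9749702-9749951, plus strand) has 20 CpG in this stretch, and MRE11A (−0.97, chr11:94493845-94494094, minus strand) and RAD50 (−0.88, chr5:132556727-132556976, plus strand) have 19 and 20, all on GRCh38.p14. ERCC1 (1.31, chr19:45451548-45451797, minus strand) has 3. The bases that follow the ERCC1 window were not found in a GENCODE 29 transcript, so this RefSeq start may not be the one used in FaDu. FANCE (0.92), which is not printed, has 23 CpG in its 250 bases, and its start has the same limit. No window was found for NBN (−0.92).
OGG1: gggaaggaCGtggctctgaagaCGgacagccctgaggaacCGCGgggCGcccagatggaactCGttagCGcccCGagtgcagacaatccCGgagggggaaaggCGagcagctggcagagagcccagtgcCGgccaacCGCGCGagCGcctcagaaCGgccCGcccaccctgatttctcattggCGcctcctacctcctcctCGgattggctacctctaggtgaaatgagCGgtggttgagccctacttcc
ERCC1: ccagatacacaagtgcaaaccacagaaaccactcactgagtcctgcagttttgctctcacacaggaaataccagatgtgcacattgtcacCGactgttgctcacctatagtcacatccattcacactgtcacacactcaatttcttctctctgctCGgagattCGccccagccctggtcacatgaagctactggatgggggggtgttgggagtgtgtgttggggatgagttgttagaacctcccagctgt
MRE11A: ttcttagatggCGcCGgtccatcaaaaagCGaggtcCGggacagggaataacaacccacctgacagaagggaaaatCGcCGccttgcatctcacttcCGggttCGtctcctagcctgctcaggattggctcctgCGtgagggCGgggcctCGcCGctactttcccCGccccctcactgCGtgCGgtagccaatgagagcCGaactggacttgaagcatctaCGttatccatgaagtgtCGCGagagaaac
RAD50: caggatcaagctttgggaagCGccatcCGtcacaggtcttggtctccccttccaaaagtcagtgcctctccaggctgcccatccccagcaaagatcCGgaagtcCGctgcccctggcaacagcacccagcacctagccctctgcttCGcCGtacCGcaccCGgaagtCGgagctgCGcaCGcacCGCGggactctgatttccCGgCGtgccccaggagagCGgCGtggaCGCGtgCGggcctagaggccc

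OGG1, MRE11A and RAD50 had nearly equal numbers of CpG before the start, while ERCC1, with the highest change of the 58, had far fewer in the window printed. CpG methylation itself was not measured.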

How the data were processed

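Polyadenylated RNA of FaDu cells was compared between 1 DMSO library and 1 library treated with Aza and TSA, grouped by the GEO labels. The authors deposited FPKM per gene symbol and library, per the file headers. The submitters' processing notes name TopHat 1.3.2, Cufflinks 2.0.2 and hg19. For the annotation, the strand setting and the scaling of libraries, the method is not given in the sources used here. Of 133 short RNA genes, 37.6% had ratios between the FaDu libraries within 0.1% of ratios of whole numbers up to 6, which gives no absolute depth. The 45 repeated rows were summed, none of them among the 58 genes. Changes used a pseudocount of 1 FPKM, and genes at 1 FPKM or more in either library counted as measured. GC content and length came from the principal transcript in GENCODE release 29 (all 58 genes, 92.4% of measured genes), with no coordinates used. The GC trend was a lowess (fraction 0.3, statsmodels 0.14.6) over genes reaching 5 FPKM in each library, tested on simulated data. The simulation used a straight trend and changes wider than any of the 58, in genes at higher levels than most of them. It therefore does not speak to the smaller corrected changes given here. The 58 genes and all lists were chosen with earlier results of these data known. Genes named are the 58, and from each other list genes among the 4 widest changes and markers, with HUS1, OBFC2B and MGMT as the exceptions. Other settings were a pseudocount of 0.1 or 5, a filter at 5 FPKM or none, TPM and upper-quartile scaling, the highest row per symbol, GC and length correction, and thresholds of 1.5-fold and 4-fold. GC content as the median over transcripts was added after seeing the data.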

Additional observations from a re-analysis of the deposited data

How the results depend on the processing

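With 1 library per group there is no replicate to leave out. No paired analysis was possible because each group holds 1 library. The number of the 58 genes called at least 2-fold higher, 1 as reported, was 3 with a pseudocount of 0.1 (ERCC1, OGG1 and FANCE), 2 with TPM scaling (ERCC1 and OGG1) and 0 after GC correction, also with GC content as the median over transcripts, which was chosen after seeing the data. It was 8 at 1.5-fold and 0 at 4-fold. The number called lower, 0 as reported, was 1 with a pseudocount of 0.1 (MRE11A), 2 with TPM scaling (MRE11A and NBN), 3 with upper-quartile scaling (MRE11A, NBN and RAD50) and 10 at 1.5-fold. Of the other 132 repair genes, 9 higher became 2 with a pseudocount of 5, 5 with upper-quartile scaling, 5 after length correction and 1 after either GC correction. The 5 lower became 14 with a pseudocount of 0.1, 13 with TPM scaling, 13 with upper-quartile scaling, 9 after length correction and 1 with a pseudocount of 5. Why these counts moved was not tested. With no replicate spread, a class median was counted as moved past 1.5-fold, wider than any class median as reported, so that none counted says nothing about stability. GC correction took homologous recombination from −0.44 to −0.20. Signs turned for end joining (0.03 and 0.09 with the GC corrections by principal and by median transcript), nucleotide excision repair (0.11 and 0.12), mismatch repair (0.01 by median transcript) and Fanconi anaemia (0.02 by median transcript). Among the 6 Fanconi genes left by a filter at 5 FPKM in either library the median was 0.08. FANCA, at 3.28 and 6.15 FPKM, passed that filter only through the treated library, so this value does not speak to the direction of the class. Upper-quartile scaling moved the median of all genes from 0.13 to −0.03. Relative to that median, homologous recombination was −0.57 as reported and −0.58 with this scaling. Over all genes 75.5% of calls were higher as reported, 61.8% with upper-quartile scaling and 63.6% after GC correction. Absolute depth is not given by FPKM, so its limit for genes at low levels is unknown.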

Other observations

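In the GENCODE 29 annotation 25 of the 58 genes share exon sequence with a gene on the opposite strand, and 17 such pairs had a measured partner. In 15 of the 17 pairs both genes lay on the same side of 0. The matching shares over all genes were not computed, so these counts cannot be read as particular to the repair genes. ERCC1 overlaps CD3EAP by 1593 bases, and CD3EAP was 3.53 and 7.16 FPKM. MRE11A overlaps ANKRD49, at 11.1 and 5.95 FPKM, FANCL overlaps VRK2, at 29.9 and 15.4 FPKM, and MUTYH overlaps TOE1, at 7.23 and 13.7 FPKM. The exceptions were FANCI with POLG, at 11.4 and 24.9 FPKM, and TP53BP1 with TUBGCP4, at 9.67 and 7.41 FPKM. The libraries were stranded, but whether reads were assigned by strand is not given in the sources used here, and the part of shared reads or of shared GC content in these pairs was not tested.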
